A study of Mus musculus with 4 samples.

Results

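The transcripts described are those of 10 mouse genes, most of whose proteins fill or accompany the granules of neutrophils: S100a8, S100a9, Ngp, Camp, Ltf, Retnlg, Lcn2, Chil3, Chil4 and Mmp8. They were measured in B cell preparations from lymph nodes, although they are known as products of myeloid cells rather than of B cells. Probe sets were matched to the genes by the symbols of the platform annotation, and where a gene had several the brightest on average stands for it. Of the 10 genes, 9 had a probe set, 10 probe sets in all, out of 17097 genes on 45037 probe sets. No probe set with a single gene name was that of Retnlg, a resistin-like protein of mouse neutrophils, so it has no value here. The genes were chosen by their signals in the comparison of transgenic with wild type mice, so those differences are given as a description with no test.

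The transgenic (TG) group was 2 mice that over-express miR-146a, and the wild type (WT) group was 2 mice without the transgene. All 4 were males of the inbred Balb/C strain, aged 6 to 8 weeks. B cells were taken from lymph nodes by magnetic depletion of other cells, dead cells were removed, and each mouse's RNA was hybridised to 1 Affymetrix array. The labels name no promoter for the transgene, and miR-146a itself was not analysed here because no probe set was named for it. Values are log2 signals, so a difference of 1 means a 2-fold change. The median log2 signal was 4.48 on the array of TG mouse 1 and 4.61 on that of TG mouse 2, against 4.60 and 4.59 on the WT arrays. On the array of TG mouse 1 the 3' end of beta-actin exceeded its middle part by 0.47 log2 units, against 0.14 to 0.16 on the other 3 arrays. The part of this array's lower signal in the differences below was not tested. Where quantile normalization moved the difference of 1 of the 9 genes by more than the spread between mice, that value is also given. Non-specific control probe sets with 10 to 20 G or C bases reached at most 3.57 and 3.51 on the TG arrays and 3.49 and 3.50 on the WT arrays. Signals near these values have little room to fall, and folds against them understate a difference.

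Neutrophils build their granules in a fixed order while they mature in bone marrow. Azurophil (primary) granules with myeloperoxidase and serine proteases form first in promyelocytes, specific (secondary) granules with lactoferrin and cathelicidin follow, and gelatinase (tertiary) granules and secretory vesicles come last. S100A8 and S100A9 are not granule proteins: they fill the cytosol as a calcium-binding heterodimer and act as alarmins, signals of tissue damage, when released. Transcription factors of the C/EBP family and PU.1 are known to drive many of these genes. miR-146a is known to restrain signalling downstream of Toll-like receptors in myeloid and lymphoid cells.

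The genes lie in few places. S100a8 and S100a9 are next to each other on chromosome 3, with no gene starting between them, and so are Chil3 and Chil4. Camp, Ngp, Ltf and Mmp8 are on chromosome 9, where 18 genes start between Camp and Ngp and 25 between Ngp and Ltf. RefSeq promoter sequences (GRCm38.p6) matched all 10 genes, and the 250 bases before the annotated start were searched. The C/EBP letters TTGCNNAA, on either strand, occurred in 7 of the 10 promoters and in 9.57% of 32536 promoters. The PU.1 letters GAGGAAGT, on either strand, occurred in 2 of the 10 and in 2.45% of all. The TATA box letters TATAAA, on the gene's strand, occurred in 2 of the 10 and in 7.55% of all. These are matches of letters, not sites shown to be bound. The promoters below show 3 of the specific granule genes with a C/EBP match (Ngp with a match 138 and another 11 bases before its start, Ltf, Mmp8), the alarmin S100a8, and the Chil3 and Chil4 pair, whose likeness bears on their probe sets. Matches are in capitals, and the mature miR-146a-5p of the transgenic mice follows with its seed, bases 2 to 8, in capitals.
Ngp, chr9:110419558-110419807, plus strand: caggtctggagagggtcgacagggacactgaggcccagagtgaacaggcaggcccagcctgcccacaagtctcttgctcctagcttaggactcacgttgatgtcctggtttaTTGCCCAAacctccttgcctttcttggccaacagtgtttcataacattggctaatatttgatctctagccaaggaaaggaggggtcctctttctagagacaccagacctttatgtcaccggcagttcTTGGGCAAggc
Ltf, chr9:111019042-111019291, plus strand: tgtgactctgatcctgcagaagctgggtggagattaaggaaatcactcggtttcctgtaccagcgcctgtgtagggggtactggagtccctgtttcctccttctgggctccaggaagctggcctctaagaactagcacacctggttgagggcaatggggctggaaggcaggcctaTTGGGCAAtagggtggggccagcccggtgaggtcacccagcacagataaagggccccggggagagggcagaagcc
Mmp8, chr9:7558179-7558428, plus strand: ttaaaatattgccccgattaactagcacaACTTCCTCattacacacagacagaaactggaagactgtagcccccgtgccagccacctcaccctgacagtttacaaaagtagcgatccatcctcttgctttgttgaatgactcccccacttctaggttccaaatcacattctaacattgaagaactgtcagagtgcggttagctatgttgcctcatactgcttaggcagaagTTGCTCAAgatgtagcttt
S100a8, chr3:90668821-90669070, plus strand: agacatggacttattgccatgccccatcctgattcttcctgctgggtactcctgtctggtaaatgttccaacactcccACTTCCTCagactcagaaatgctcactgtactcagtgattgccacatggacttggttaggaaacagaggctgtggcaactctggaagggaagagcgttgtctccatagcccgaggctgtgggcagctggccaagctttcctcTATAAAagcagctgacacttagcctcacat
Chil3, chr3:106167565-106167814, minus strand: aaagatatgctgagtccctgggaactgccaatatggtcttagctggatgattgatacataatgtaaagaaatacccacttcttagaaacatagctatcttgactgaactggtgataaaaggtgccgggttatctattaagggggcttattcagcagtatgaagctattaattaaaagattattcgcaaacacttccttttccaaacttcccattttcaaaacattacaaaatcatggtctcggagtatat
Chil4, chr3:106219480-106219729, minus strand: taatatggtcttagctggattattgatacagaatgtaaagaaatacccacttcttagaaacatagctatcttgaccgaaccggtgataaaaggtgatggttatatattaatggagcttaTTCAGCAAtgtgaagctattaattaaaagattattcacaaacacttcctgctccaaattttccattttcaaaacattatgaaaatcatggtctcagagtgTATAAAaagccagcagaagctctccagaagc
mmu-miR-146a-5p, chr11:43374435-43374456, minus strand: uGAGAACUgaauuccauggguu

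In Mmp8 a C/EBP match lay 19 bases and a PU.1 match 221 bases before the start, and in S100a8 a PU.1 match lay 172 and a TATA match 30 bases before it. S100a9, Lcn2, Chil4 and Retnlg each held 1 C/EBP match, and Chil4 also a TATA match 31 bases before its start, whereas Camp and Chil3 held none of the 3 motifs in this window. The Chil3 window ends within the stretch that lines up with the TATA match of Chil4, so a match there could not be seen. The Chil3 and Chil4 promoters were identical at 201 of 221 aligned bases, or 80.4% of the window. Over the other 44 pairs of these promoters the share was 47.6 to 56.8%.

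The transcripts of the 9 measured genes were higher in the B cell preparations of both TG mice than in those of both WT mice. The median difference was 2.19 log2 units, the value of Lcn2, whose WT signals lay at the control level, where the median over all 17097 genes was -0.05 and the middle 90% of genes lay between -0.57 and 0.34. All 9 had both TG arrays above both WT arrays, as did 17.7% of all genes, and 8 of the 9 were at least 2-fold higher, as were 0.45% of all genes. The choice of the genes used this contrast, so nothing is read from these counts. Added up on the linear scale, the 9 probe sets gave signals of 1681 and 2310 on the TG arrays, against 352 and 362 on the WT arrays. In RNA from bulk preparations, more cells of a type and more RNA per cell cannot be told apart.

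**Figure D1:**
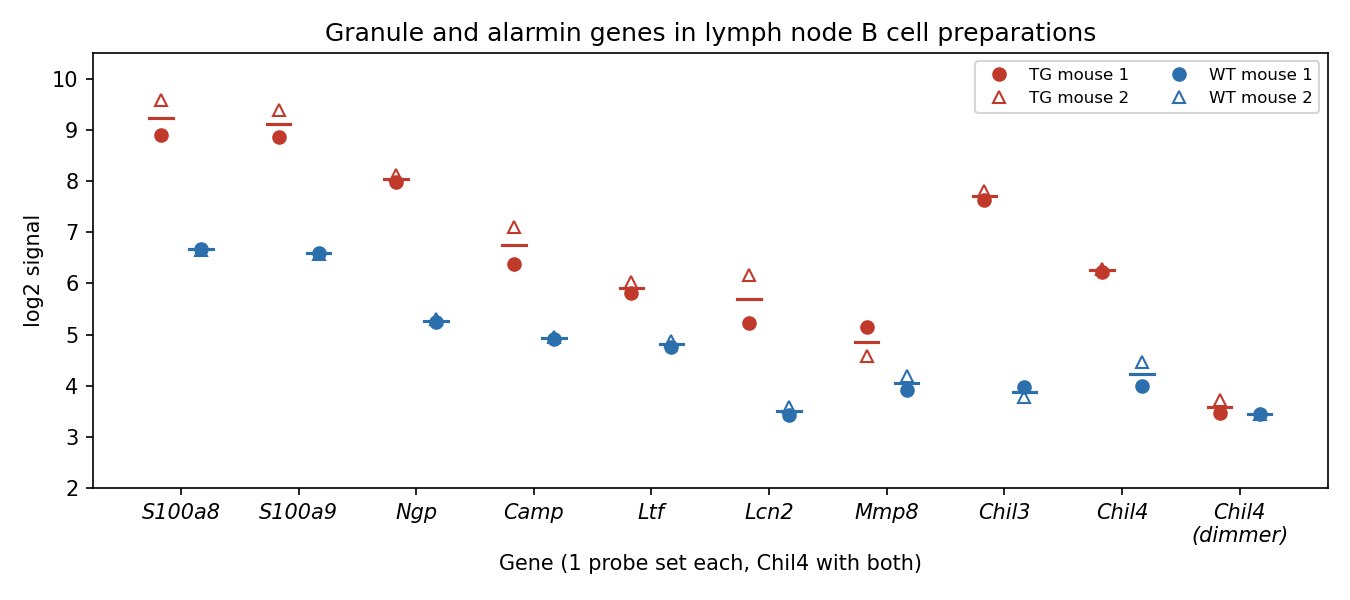
Log2 signal of each gene's probe set on each array, with TG mice in red on the left and WT mice in blue on the right of each gene, circles for mouse 1, triangles for mouse 2 and bars for the group means. All representative probe sets lie higher in both TG mice, whereas the dimmer Chil4 probe set lies at 3.47 and 3.72 in TG mice and 3.46 and 3.45 in WT mice.

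The alarmin pair was higher in both TG mice by nearly the same amount for each chain. S100a8, the smaller chain of the heterodimer, had log2 signals of 8.90 and 9.58 in TG mice, against 6.67 and 6.66 in WT mice, a difference of 2.58 or 5.97-fold. S100a9, its partner, had 8.86 and 9.38 in TG mice, against 6.60 and 6.57 in WT mice, a difference of 2.53 or 5.79-fold. Both genes were higher in TG mouse 2 than in TG mouse 1, and the WT mice differed from each other by at most 0.03. Their WT signals lay well above the brightest control probe sets.

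Among the specific granule genes, Ngp was the most even between mice on the deposited values. After quantile normalization TG mouse 2 minus TG mouse 1 was -0.19 for Ngp and -0.12 for Ltf. Ngp encodes a mouse neutrophil granule protein of the cathelicidin and cystatin superfamily. It had 7.98 and 8.11 in TG mice, against 5.25 and 5.30 in WT mice, a difference of 2.77 or 6.83-fold (2.92 log2 units after quantile normalization). Camp, which encodes the cathelicidin antimicrobial peptide of mice, had 6.38 and 7.11 in TG mice, against 4.92 and 4.96 in WT mice, a difference of 1.81 or 3.50-fold. TG mouse 2 was the higher of the pair by 0.73, while the WT mice differed by 0.04. Ltf, the iron-binding protein lactoferrin, had 5.81 and 6.03 in TG mice, against 4.76 and 4.88 in WT mice, a difference of 1.09 or 2.14-fold (1.24 log2 units after quantile normalization). The gap between the lowest TG and the highest WT array was 2.68 for Ngp, 1.42 for Camp and 0.92 for Ltf.

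Lcn2 and Mmp8 differed between the TG mice in opposite directions. Lcn2, a lipocalin that withholds iron from bacteria by binding their siderophores, had 5.23 and 6.16 in TG mice, against 3.44 and 3.58 in WT mice, a difference of 2.19 or 4.55-fold. Its WT signals lay at the level of the brightest control probe sets there (3.49 and 3.50), so the fold is not well bounded. Mmp8, the collagenase of human specific granules, had 5.14 and 4.58 in TG mice, against 3.91 and 4.20 in WT mice. Its difference of 0.80, or 1.74-fold, was the lowest of the 9, and it was the gene with TG mouse 1 above TG mouse 2. The gap between the lower TG array and the higher WT array was 0.37 for Mmp8 and 1.65 for Lcn2.

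The chitinase-like genes gave the highest difference and the least certain one. Chil3 (Ym1), a lectin without chitinase activity made by mouse neutrophils and alternatively activated macrophages, had 7.62 and 7.80 in TG mice, against 3.97 and 3.78 in WT mice. The group means were 7.71 ± 0.13 in TG mice and 3.88 ± 0.14 in WT mice (SD, n = 2 each), a difference of 3.83 or 14.3-fold. Chil4 (Ym2), its neighbour and close relative, known from airway and stomach epithelium, had 2 probe sets that did not give the same result. The brighter, 1425451_PM_s_at, had 6.23 and 6.28 in TG mice, against 4.0 and 4.46 in WT mice, a difference of 2.03 or 4.07-fold. The dimmer, 1425450_PM_at, had 3.47 and 3.72 in TG mice, against 3.46 and 3.45 in WT mice, a difference of 0.14 or 1.10-fold, near the control level on all 4 arrays. As the mean of both probe sets Chil4 differed by 1.08. The suffix s in an Affymetrix name marks probes shared by several transcripts, so the brighter probe set may read Chil3 and Chil4 together, and the Chil4 value is uncertain. S100a8 was also read by an s-type probe set, 1419394_PM_s_at.

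Differences spread more widely within the specific granule group than between it and the cytosolic pair. The cytosolic S100a8 and S100a9 had 2.58 and 2.53, while the 6 specific granule genes ran from 0.80 for Mmp8 to 3.83 for Chil3 with a median of 2.00. Against the WT mean, TG mouse 1 was higher by 0.98 (Ltf) to 3.74 (Chil3) and TG mouse 2 by 0.52 (Mmp8) to 3.93 (Chil3). In 8 of the 9 genes TG mouse 2 was the higher of the TG mice, but that array was brighter over all genes too, by a median of 0.18. The middle 90% of all genes had a difference between TG mouse 2 and TG mouse 1 of -0.31 to 0.68. Lcn2 (0.93) and Camp (0.73) lay above that range and Mmp8 (-0.57) below it. After quantile normalization TG mouse 2 was higher in 4 of the 9 genes and the range over all genes was -0.47 to 0.42, with Lcn2 at 0.67 above it, Mmp8 at -0.79 below it and Camp at 0.36 inside it. The order of the TG mice turned with the scaling for Ngp, Ltf, Chil3 and Chil4.

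**Figure D2:**
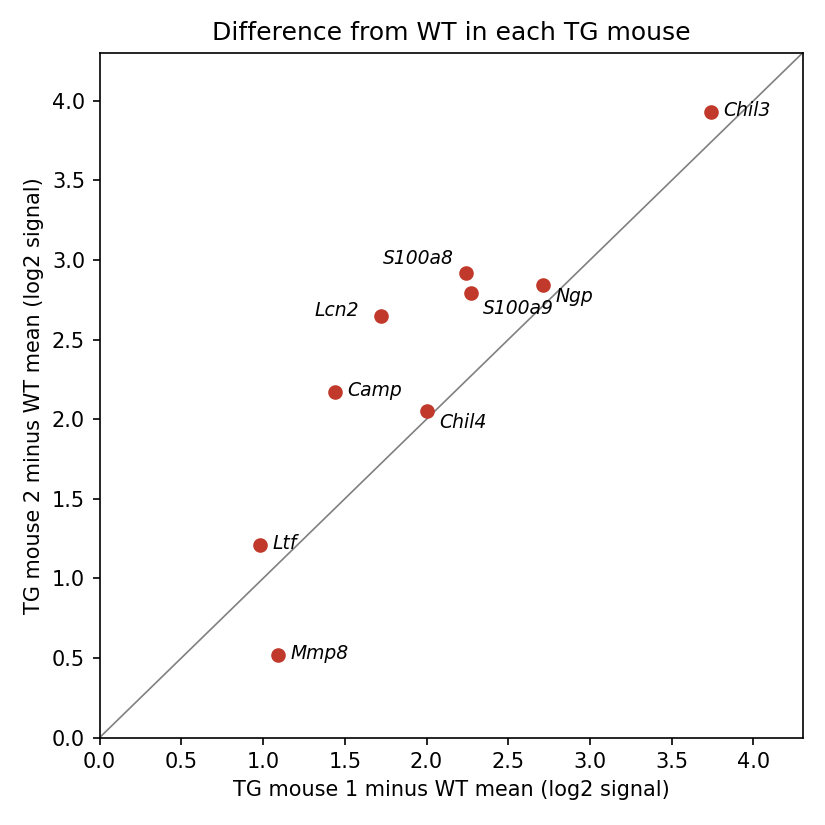
Difference of each TG mouse from the WT mean in log2 signal, with TG mouse 1 on the horizontal and TG mouse 2 on the vertical axis, 1 point per gene and the line of equal values. Chil3 lies at 3.74 and 3.93 and Mmp8, at 1.09 and 0.52, is the point below the line.

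Other genes of neutrophil granules were compared next, from lists of 50 genes that follow the order of granule formation. Lyz2 is in these lists and in the monocyte list below, Fpr2 also among the receptors, and Chil1 also among the other chitinase and resistin family genes. Of the 40 measured, none had a limma p under 0.05 after Benjamini-Hochberg adjustment across all 45037 probe sets, where 0.0466% of probe sets passed. At an unadjusted p under 0.05 there were 19 of the 40, where 13.7% of all probe sets were. Their median difference was 0.31, and 26 were higher and 4 lower without overlap between the groups, where 17.7% and 31.4% of all genes were. The count of calls depended on scaling: quantile normalization gave 10 higher and 1 lower, where 1.94% of all probe sets passed, and centring each array on its median gave 6 higher and 2 lower, where 1.36% passed. Without TG mouse 1 it was 19 higher and 2 lower, where 9.19% of all probe sets passed. Without TG mouse 2 it was 16 higher and 4 lower, where 42.4% of all probe sets passed. That share pools both directions: most of those probe sets were lower, whereas most of the granule genes that passed were higher. With 1 array left out, the spread behind each p-value came only from the pair left in the other group. Over the middle 90% of genes WT mouse 2 minus WT mouse 1 was -0.19 to 0.19, and TG mouse 2 minus TG mouse 1 was -0.31 to 0.68. Counts with 1 array left out are therefore not comparable with those of the full fit, and nothing is read from them. With either WT mouse left out the count was 0.

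**Figure D3:**
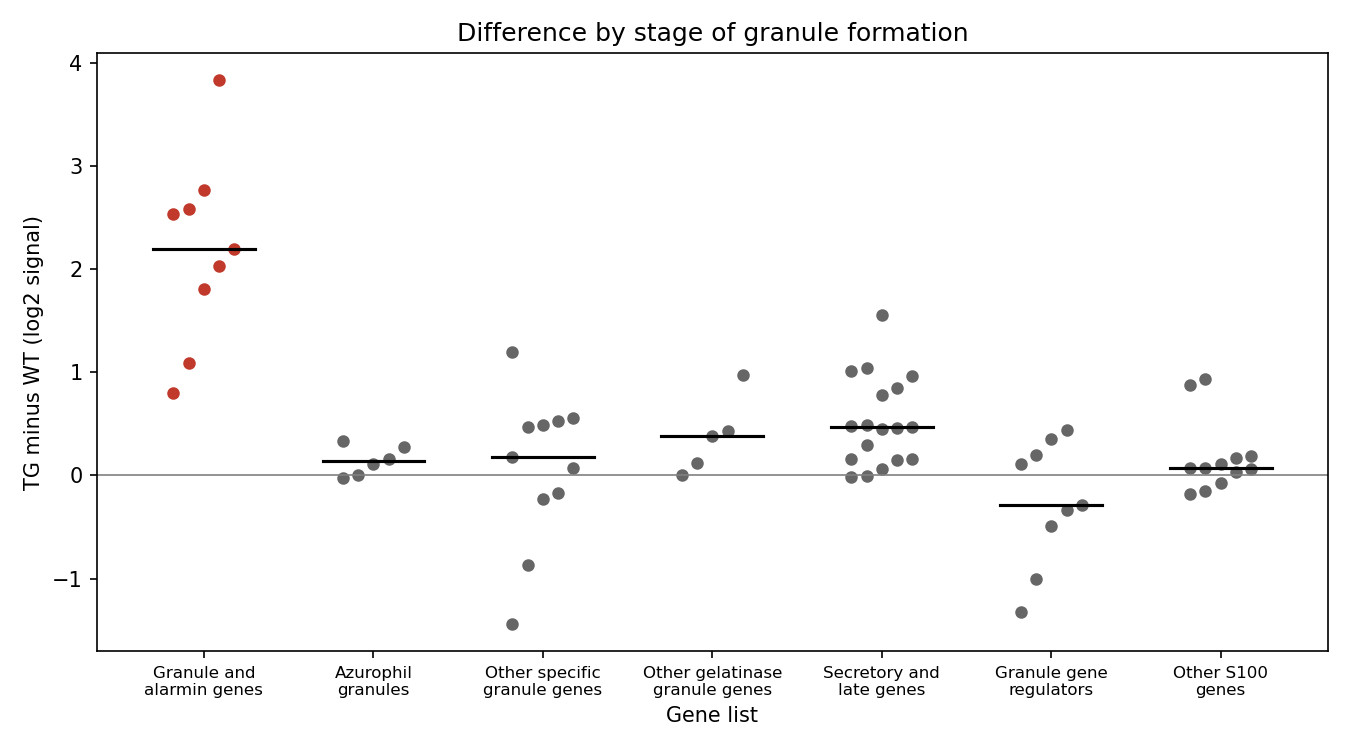
Difference between TG and WT means in log2 signal, 1 point per gene and a bar at each list's median, for the 9 measured genes in red and for 6 other lists in grey. The 9 genes, which were chosen on this contrast, have a median of 2.19, against 0.13 for azurophil granule genes and 0.47 for secretory vesicle and late genes.

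Azurophil granule genes, made first, were dim on all 4 arrays apart from the ubiquitous lysosomal enzyme Gusb, with Mpo near the control level. Mpo, myeloperoxidase, had log2 signals of 3.60 and 3.70 in TG mice, against 3.57 and 3.51 in WT mice (log2 difference 0.11, SE 0.10, limma adjusted p = 0.669). Elane, neutrophil elastase, had 4.60 and 4.67 in TG mice, against 4.53 and 4.42 in WT mice, a difference of 0.16. Ctsg, cathepsin G, differed by 0.33 and Ms4a3, a marker of granulocyte and monocyte precursors, by 0.28. Over the 6 measured genes of 9 listed the median difference was 0.13, and the range was -0.03 to 0.33. Of the 6, 4 were higher and 0 lower without overlap, where 17.7% and 31.4% of all genes were.

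The other specific granule genes were mixed. Hp, haptoglobin, had 4.54 and 5.33 in TG mice, against 3.68 and 3.79 in WT mice (log2 difference 1.20, SE 0.28, limma adjusted p = 0.221), and Olfm4, olfactomedin 4, differed by 0.56 near the control level. Cybb, a membrane subunit of the phagocyte NADPH oxidase that B cells also express, was at 8.02 and 8.25 in TG mice, against 9.58 and 9.57 in WT mice (log2 difference -1.44, SE 0.12, limma adjusted p = 0.081, and 0.0138 after quantile normalization). Its other probe sets differed by -1.70 and -0.39. Pglyrp1, a peptidoglycan-binding protein, differed by -0.87. The median of the 11 genes was 0.18, with 5 higher and 4 lower without overlap, where 17.7% and 31.4% of all genes were.

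None of the genes of the last stages was lower without overlap, where 31.4% of all genes were, and none of the azurophil genes was either. Of the gelatinase granule genes 3 were higher without overlap, where 17.7% of all genes were. Among 5 gelatinase granule genes, Mmp9, gelatinase B, had 4.32 and 4.24 in TG mice, against 3.88 and 3.91 in WT mice (log2 difference 0.38, SE 0.10, limma adjusted p = 0.25). The dimmer Mmp9 probe set differed by 0.17. Adam8, a membrane metalloprotease of granulocytes, differed by 0.97 (limma adjusted p = 0.205, and 0.0305 after quantile normalization), Itgb2, the integrin chain shared by leukocytes, by 0.43, and Slc11a1, a metal ion transporter of phagosomes, by 0.12. Of 18 secretory vesicle and late neutrophil genes, 14 were higher without overlap, where 17.7% of all genes were, with a median of 0.47. Ifitm6, an interferon-induced transmembrane family member of myeloid cells, had 5.34 and 5.72 in TG mice, against 3.85 and 4.11 in WT mice (log2 difference 1.55, SE 0.18, limma adjusted p = 0.106, and 0.0156 after quantile normalization). Fpr2, a formyl peptide receptor that also binds cathelicidin peptides, differed by 1.01 and Il1b, the cytokine interleukin 1 beta, by 1.04. Clec4e, the receptor Mincle, differed by 0.85 on its brighter probe set and by 0.35 on its dimmer one. Fpr2, Il1b and the brighter Clec4e probe set passed after quantile normalization (limma adjusted p = 0.0311, 0.0138 and 0.0401). The receptors Csf3r and Cxcr2, for granulocyte colony-stimulating factor and chemokines, were named after their values were seen and differed by 0.06 and 0.15.

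Regulators of granule genes did not differ in 1 direction. Irf8, which steers precursors away from the neutrophil fate and is also a B cell factor, was at 9.21 and 9.25 in TG mice, against 10.49 and 10.61 in WT mice (log2 difference -1.32, SE 0.10, limma adjusted p = 0.0796, and 0.0262 after quantile normalization). Spi1, which encodes PU.1 and is active in B cells too, differed by -1.0. Cebpb differed by -0.49 on its brightest probe set but by 0.19 and 0.10 on the others, and Myb, a factor of immature cells, by 0.35. None of the 9 measured regulators passed by limma (3 at an unadjusted p under 0.05, where 13.7% of all probe sets were), and 3 were higher and 5 lower without overlap, where 17.7% and 31.4% of all genes were. No probe set with a single gene name was that of Cebpe, the C/EBP factor of the specific granule stage.

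Relatives and partners of the 9 genes were read in the same fit. Of 12 other S100 genes, S100a4 differed by 0.93 and S100a6 by 0.88, both calcium-binding proteins common in activated lymphocytes and myeloid cells (limma adjusted p = 0.261 and 0.224, and 0.0494 and 0.0299 after quantile normalization). The list's median was 0.07, S100a11 differed by 0.19 and S100a13 by -0.18, and S100b and S100g lay at the control level. Of 7 other chitinase and resistin family genes the median was 0.03, with Retnla, a resistin-like protein of alternatively activated macrophages, at 0.38 and Retnlb at 0.42. Chia1, the acidic chitinase, and Ovgp1, an oviduct glycoprotein, differed by -0.08 and -0.52. Among 11 receptors and partners, with a median of 0.03, Cd14, the co-receptor of TLR4, had 5.22 and 4.88 in TG mice, against 4.12 and 4.04 in WT mice (log2 difference 0.97, SE 0.15, limma adjusted p = 0.144). Ly96, the partner of TLR4, differed by -0.39. Emb, embigin, differed by 0.86 on its brightest probe set and by 0.46, 0.25 and -0.28 on the other 3. None of these 3 lists had a gene past the threshold by limma, and at an unadjusted p under 0.05 there were 2, 1 and 3 genes, where 13.7% of all probe sets were.

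Markers of the labelled cell and of other cells were measured on the same arrays. Ms4a1, the B cell surface protein CD20 and named here after its values were seen, had log2 signals of 10.99 and 10.89 in TG mice, against 11.27 and 11.33 in WT mice. All 9 measured B cell markers were lower in TG mice without overlap, where 31.4% of all genes were. Their median difference was -1.01, and their summed linear signal was 6737 and 7090 in TG mice, against 12518 and 13185 in WT mice. Blk, a B cell kinase, differed by -1.31 (SE 0.12), Ebf1, a B lineage factor, by -1.28, Fcer2a, the IgE receptor CD23, by -1.02, and Cd22, a lectin that dampens B cell receptor signals, by -0.94 (limma adjusted p = 0.0935 for Blk, Fcer2a and Cd22, and 0.136 for Ebf1). T cell markers were bright on every array, with a summed signal of 13008 and 14572 in TG mice, against 10293 and 10491 in WT mice. Of 9 such genes 8 were higher and 1 lower without overlap, where 17.7% and 31.4% of all genes were (median 0.29). Cd8a differed by 1.14 on its brightest probe set and by 0.64 and 1.90 on the others. Cd8b1 differed by 0.74, Thy1 by 0.49 and Cd4 by -0.79 (-0.08 on its dimmer probe set). The part of a changed share of B cells or of other cells in the higher granule transcripts was not tested.

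**Figure D4:**
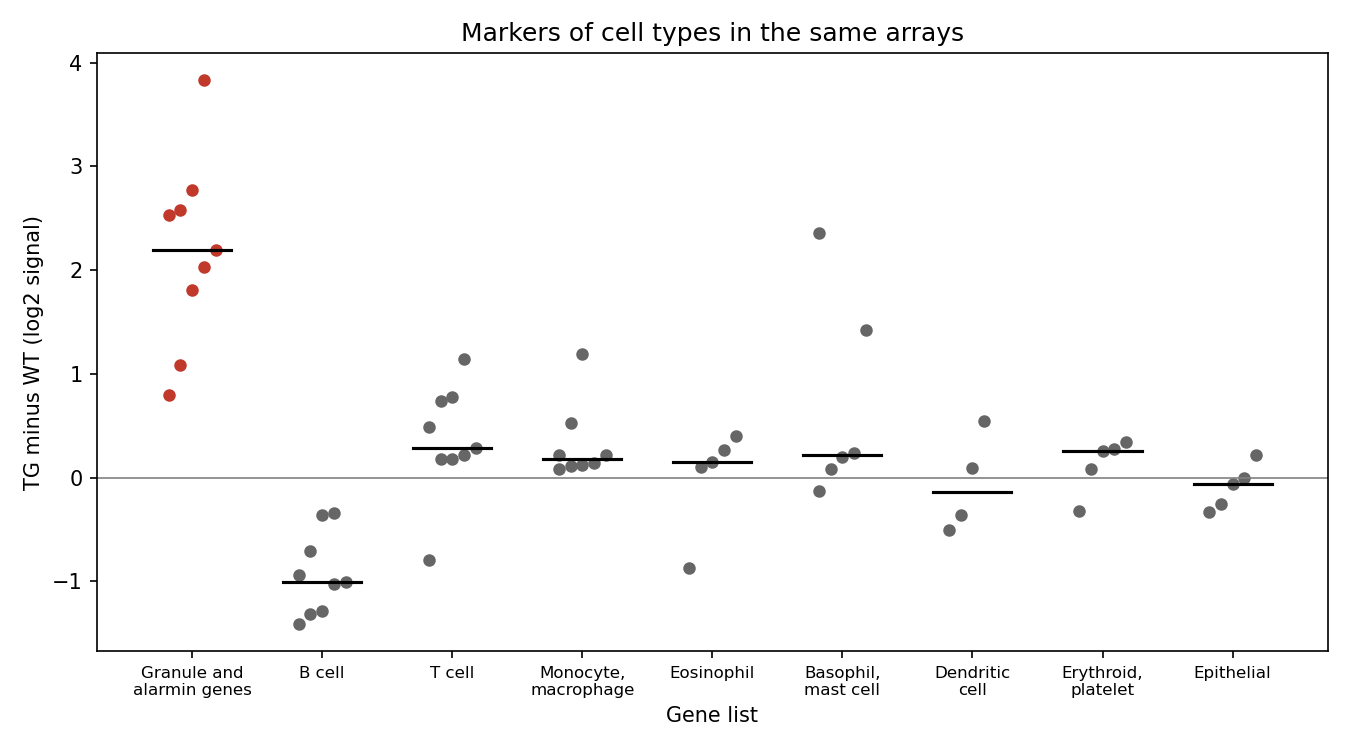
Difference between TG and WT means in log2 signal for the 9 measured genes in red and for markers of 8 kinds of cell in grey, 1 point per gene and a bar at each median. B cell markers lie at a median of -1.01, and Cpa3, at 2.36, is the highest grey point.

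Markers of other myeloid cells were measured next. The 8 monocyte and macrophage markers had a median of 0.18 and a summed signal of 1685 and 2029 in TG mice, against 1301 and 1283 in WT mice, with 5 of the 8 higher without overlap, where 17.7% of all genes were. Most of the summed signal was Lyz2, also in the granule lists (log2 10.42 and 10.71 in TG mice, against 10.05 and 10.01 in WT mice). Ccr2, a chemokine receptor by which monocytes leave the marrow, differed by 1.19 on its brightest probe set and by 0.20 to 0.93 on the other 3, Lyz2, lysozyme, by 0.53, and Cd68 and Mertk by 0.22 each. The 6 basophil and mast cell markers had a median of 0.22 and a summed signal of 218 and 305 in TG mice, against 129 and 122 in WT mice. Of the 6, 4 were higher and 1 lower without overlap, where 17.7% and 31.4% of all genes were. Cpa3, mast cell carboxypeptidase, had 6.71 and 7.45 in TG mice, against 4.79 and 4.66 in WT mice (log2 difference 2.36, SE 0.26, limma adjusted p = 0.105, and 0.0105 after quantile normalization). Fcer1a, an IgE receptor chain, differed by 1.42 (limma adjusted p = 0.0678), whereas Gata2 and Kit differed by 0.20 and 0.24 and Mcpt8 lay at the control level on all arrays. The WT signals of Fcer1a, 2.57 and 2.59, lay below the mean of the non-specific controls there (2.83 and 2.84). The 5 eosinophil markers had a median of 0.15 and a summed signal of 55 and 58 in TG mice, against 62 and 65 in WT mice. Without overlap 4 were higher and 1, Il5ra, was lower, where 17.7% and 31.4% of all genes were. Epx, Siglecf and Ccr3 lay at the control level on all arrays, Prg2 differed by 0.40 and Il5ra by -0.87.

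Dendritic cell markers had a median of -0.14 and a summed signal of 172 and 162 in TG mice, against 189 and 202 in WT mice. Erythroid and platelet markers had a median of 0.26 and a summed signal of 4679 and 5469 in TG mice, against 4055 and 4015 in WT mice. Nearly all of that sum was Hba-a1, a haemoglobin gene (log2 12.15 and 12.38 in TG mice, against 11.94 and 11.92 in WT mice). Epithelial markers, listed because Lcn2, S100a8 and Chil4 are also made by epithelia, had a median of -0.06 and a summed signal of 98 and 125 in TG mice, against 115 and 118 in WT mice. No gene of the 8 marker lists passed the threshold by limma. At an unadjusted p under 0.05 there were 8 B cell, 6 T cell, 2 monocyte and macrophage, 2 eosinophil, 2 basophil and mast cell, 1 dendritic cell, 1 erythroid or platelet and 0 epithelial markers, where 13.7% of all probe sets were. After quantile normalization Cpa3 and Fcer1a, Cd8a and Cd8b1, Ccr2 and Lyz2, and Blk, Ebf1, Fcer2a and Cd22 did (limma adjusted p = 0.0105 to 0.0388), among the marker genes named here.

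Genes nearest in profile were found by the Euclidean distance over 4 arrays, after each gene was centred on its WT mean, among 12015 other genes above the 40th percentile of signal. The median profile of the 9 genes was 2.00 in TG mouse 1 and 2.65 in TG mouse 2. The nearest was Cpa3 (distance 0.15), then Apol7c (0.27), an apolipoprotein L family member, and Gcc2 (0.34), a Golgi coiled-coil protein. Ear3, of the eosinophil-associated ribonuclease family, had 4.72 and 5.69 in TG mice, against 3.19 and 3.05 in WT mice (distance 0.44). Its s-type probe set lay below the brightest control probe sets in WT mice (3.49 and 3.50). The signal cut of 4.1 was set on the mean of all 4 arrays, so Ear3 passed it only through its TG signals. F13a1, a coagulation factor subunit made by macrophages and platelets, had 5.90 and 6.88 in TG mice, against 4.06 and 4.47 in WT mice (distance 0.44). Il17a, a T cell cytokine known to raise neutrophil production, had 7.61 and 8.39 in TG mice, against 5.20 and 5.69 in WT mice (distance 0.45). Ifi213 (0.53), of an interferon-activated gene family, and Apol7b (0.55) completed the 8. Of the 9 genes themselves Lcn2 (0.29), S100a9 (0.31) and S100a8 (0.36) lay nearest to the median profile and Mmp8 (2.33) farthest. This likeness rests on the same contrast that chose the genes, and it is given without a test.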

How the data were processed

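The values deposited by the authors are log2 signals of 45141 probe sets on 4 arrays. Their background correction, normalization and summarisation are not given in the sources used here, and the log2 scale was read from their range (2.01 to 13.03). No detection calls were used. Groups came from the sample titles. In the platform annotation 28898 probe sets have 1 gene name, 551 have several and 15588 have none. Only the 28898 were assigned to genes, and the 551 were not searched for genes without a value. Entrez IDs matched 28689 of the 28898 to RefSeq genes of GRCm38.p6. The members and lists were chosen with earlier results of these data known. Of each list at most 4 genes are named, those with the smallest limma p, besides the 8 genes nearest in profile. Gusb, Csf3r, Cxcr2, Chil1, S100b, S100g, Ms4a1, Ccr3 and Mcpt8 fall outside this rule and were named after their values were seen.

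The groups were tested in limma 3.58.1 under R 4.3.3 with a two-sided moderated fit of 45037 probe sets (104 controls left out), and p-values were adjusted by Benjamini and Hochberg's method with a threshold of 0.05. The fit had 2 residual and 2.69 prior degrees of freedom. The fit was tested on simulated data with known changes. Only 2 mice a group carry the spread behind each p-value, and an exact two-sided permutation test of 1 gene cannot give a p below 0.333. Promoters were aligned with Biopython 1.88, and figures were drawn with matplotlib 3.10.9.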

Additional observations from a re-analysis of the deposited data

How the results depend on the processing

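The 9 measured genes were higher in TG mice, without overlap, under both other scalings and with Chil4 as the mean of its probe sets. Their median difference was 2.19 as deposited, 2.25 after quantile normalization, 2.24 after centring on medians and 2.00 to 2.65 when 1 array was left out. Of 18 single-gene values under the 2 other scalings 16 moved by less than the spread between mice. Ngp (2.92) and Ltf (1.24) moved more after quantile normalization. Chil4 moved to 1.08 as the mean of its probe sets. The median difference between TG mouse 2 and TG mouse 1 was 0.22 as deposited, 0.10 after centring and -0.12 after quantile normalization. The count of probe sets past the limma threshold was 21 as deposited (17 higher, 4 lower), 875 after quantile normalization (406 higher, 469 lower), 612 after centring (188 higher, 424 lower), 51 among brighter probe sets, 26 with a trended and robust prior, and 0 to 19110 when 1 array was left out (4140 without TG mouse 1, 19110 without TG mouse 2 and 0 without either WT mouse). Among the 40 other granule genes it was 0 as deposited, 11 after quantile normalization, 8 after centring and 0 to 21 when 1 array was left out. The cause of these shifts was not tested. A group left with 1 array was assumed to vary like the other. The counts with 1 array left out thus rest on the spread of the remaining pair alone, and nothing is read from them. The labels tie no TG mouse to a WT mouse, and deviations of arrays with the same number were not correlated (0.01). With mouse number as a replicate block 15 probe sets and 0 of the 40 granule genes passed. Signal over background limits Lcn2, Mmp8, Chil3 and Chil4, which were dim in WT mice, and 2 arrays a group limit every value.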
